A study of Mus musculus with 2 samples.

Results

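The Mir181 family comprised 6 microRNA (miRNA) genes, Mir181a-1, Mir181a-2, Mir181b-1, Mir181b-2, Mir181c and Mir181d, among the 2202 annotated miRNA genes counted in the series. The genes were chosen by name, as paralogs arranged in 3 clusters of a family reported to rise in muscle differentiation, and each identifier matched 1 gene name of the GENCODE M21 annotation. Small RNA was sequenced from myotubes, with no treatment listed, of C2C12, an established mouse myoblast line from thigh muscle of a C3H mouse after injury, whose cells stop dividing and fuse into multinucleated myotubes in culture. Differentiation had lasted 72 h, and the 1 group held 2 libraries labelled as biological replicates from separate biosamples of the same cell line. Undifferentiated cells were not analysed here, so levels were compared between genes and between the libraries, and a rise with differentiation was not tested.

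A miRNA gene is transcribed as a longer RNA with a hairpin, which is cut to a short duplex with a 5p and a 3p arm. In most cases one arm is loaded into an Argonaute protein, and its seed near the 5′ end pairs with target messenger RNAs and lowers their output. The Mir181 miRNAs are known from lymphocytes, where miR-181a tunes T cell receptor signalling, and from brain and muscle; in differentiating myoblasts miR-181 was reported to repress the homeobox gene Hoxa11, an inhibitor of muscle differentiation.

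The 6 hairpins encoded 4 distinct 5p arms, shown here because they decide which reads can be told apart. In the mature sequences from RefSeq (GRCm38.p6, 5′ to 3′), capitals mark the seed, bases 2 to 8.
mmu-miR-181a-5p, from Mir181a-1 and Mir181a-2: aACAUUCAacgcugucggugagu
mmu-miR-181b-5p, from Mir181b-1 and Mir181b-2: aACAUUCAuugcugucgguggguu
mmu-miR-181c-5p, from Mir181c: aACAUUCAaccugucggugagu
mmu-miR-181d-5p, from Mir181d: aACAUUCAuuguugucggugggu

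All 4 carried the seed ACAUUCA, which no mature entry from outside the family shared among the 1738 entries of the RefSeq table. The miR-181c-5p sequence differed from miR-181a-5p by an edit distance of 1, with 22 bases against 23. Over their first 23 bases, miR-181b-5p and miR-181d-5p differed by 1 substitution, C12U (the base of miR-181b-5p first, positions counted from 1 at the 5′ end of the arm). The 5p arms of Mir181c and Mir181d were found in no other annotated hairpin, whereas those of the a and b genes each had an exact copy in their paralog.

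The 3p arms, unlike the 5p arms, were distinct in every member. They are shown because they hold bases that separate the copies, with the seed again in capitals.
mmu-miR-181a-1-3p: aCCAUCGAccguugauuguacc
mmu-miR-181a-2-3p: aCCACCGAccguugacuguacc
mmu-miR-181b-1-3p: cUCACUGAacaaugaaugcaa
mmu-miR-181b-2-3p: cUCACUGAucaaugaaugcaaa
mmu-miR-181c-3p: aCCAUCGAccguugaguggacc
mmu-miR-181d-3p: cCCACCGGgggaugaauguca

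From miR-181a-1-3p to miR-181a-2-3p there were 2 substitutions, U5C and U16C, and the first of them lies in the seed. Over 21 bases, miR-181b-1-3p and miR-181b-2-3p differed by A9U. Mir181a-1 and Mir181c had the 3p seed CCAUCGA in common, and their 3p arms differed by U16G and U19G. None of the 3p arms had an exact match in another annotated hairpin.

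Beyond the 5p arm the paralogs diverged at different distances, as the first 30 bases from the start of each 5p arm show, with the first base that differs between the copies in capitals (hairpins of the GENCODE M21 transcripts).
Mir181a-1: aacauucaacgcugucggugaguuuggAau
Mir181a-2: aacauucaacgcugucggugaguuuggGau
Mir181b-1: aacauucauugcugucgguggguuGaacug
Mir181b-2: aacauucauugcugucgguggguuUgaaug

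The a copies were identical for 27 bases, 4 past the end of the arm, and first differed at A28G. The b copies were identical for 24 bases, the length of the arm itself, and differed at the next base, G25U. A read that started at the first base of the 5p arm and stopped before these positions therefore had the same letters in both paralogs. The deposited tables count reads that mapped to several places in a line of their own, outside the genes, so the levels of the 4 a and b genes leave such reads out and are uncertain. That line held 3378438 reads in replicate 1 and 3295854 in replicate 2, or 142 and 88.3 for each read assigned to the family. How many of them came from the family was not tested. The mismatches allowed in mapping were not given in the sources used here. The 5p arms of Mir181c and Mir181d lie an edit distance of 1 from that of the a genes and 1 substitution from that of the b genes, respectively, so reads of Mir181c and Mir181d may be among those left out as well.

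**Figure D1:**
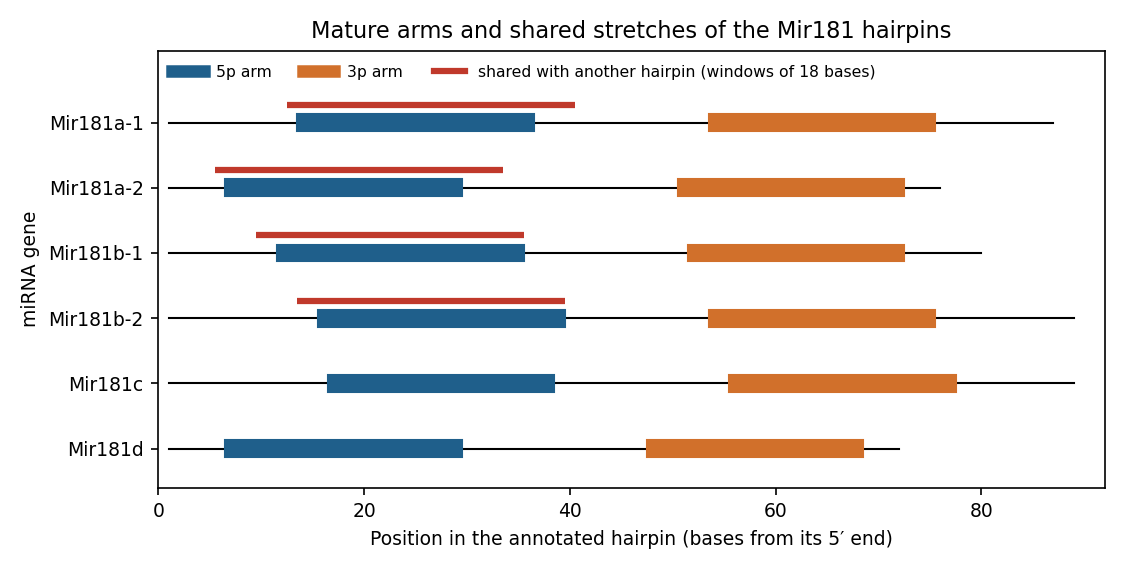
Map of the 6 annotated hairpins, with position in bases from the 5′ end on the horizontal axis and 1 gene per row. Blue and orange blocks are the mature 5p and 3p arms, and the red line covers windows of 18 bases found exactly in another annotated miRNA hairpin: it spans the 5p arm of the a and b genes and is absent from Mir181c and Mir181d.

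In windows of 18 bases, 11 of 70 windows in the Mir181a-1 hairpin and 11 of 59 in the Mir181a-2 hairpin were shared, each with the other. For Mir181b-1 and Mir181b-2 the counts were 9 of 63 and 9 of 72. Mir181c and Mir181d shared none of their 72 and 55 windows. Windows of 16 bases gave Mir181c 4 shared windows.

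The clusters lie on 3 chromosomes of the mm10 assembly. Mir181a-1 (ENSMUSG00000065565.1, chromosome 1, 137966455 to 137966541, plus strand) and Mir181b-1 (ENSMUSG00000065458.1, 137966639 to 137966718) lie 97 bases apart in an exon of the long non-coding RNA gene A430106G13Rik on the same strand. Mir181a-2 (ENSMUSG00000065423.1, chromosome 2, 38852735 to 38852810, plus strand) and Mir181b-2 (ENSMUSG00000065578.1, 38853830 to 38853918) are separated by 1019 bases. Both lie opposite an intron of Nr6a1, an orphan nuclear receptor gene on the minus strand. Mir181d (ENSMUSG00000076338.1, chromosome 8, 84178716 to 84178787, minus strand) and Mir181c (ENSMUSG00000065483.2, 84178873 to 84178961) are 85 bases apart within an annotated intron of Nanos3, a gene for an RNA-binding protein of germ cells, on the same strand. Reads on the opposite strand were nearly absent: 1 read at Mir181a-2 in replicate 1 and 0 at the other members in either library.

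The libraries held 7581366 and 9865298 reads on the gene's own strand of a miRNA gene, 49.4% and 53.5% of all reads. Levels are given as CPM (counts scaled so that these reads total 1000000 in each library) and are not divided by gene length, since a small RNA read is about as long as a mature arm. A count of 3 reads, the limit that a count of 0 allows, stood for 0.396 CPM in replicate 1 and 0.304 CPM in replicate 2. Intervals and this limit cover counting error only, since no molecular identifiers are mentioned. The labelled cell type was checked on marker miRNAs: the 8 skeletal muscle miRNAs summed to 355284 and 428244 CPM, of which Mir206 alone gave 340841 and 416794 CPM, and 5 of the 8 reached 2 CPM in both libraries. Mir1a-1, Mir1a-2, Mir133a-1 and Mir133a-2 lay between 1.01 and 4.22 CPM; these are known as copies of the same mature miRNAs, so their counts are uncertain in the way described for the a and b genes. Blood cell miRNAs summed to 104.7 and 183 CPM over 5 genes, and the endothelial Mir126a had 217 and 42.9 CPM. The 7 neuronal miRNAs summed to 1.71 and 1.22 CPM, with all 3 Mir124a genes, Mir9-1 and Mir9-2 at 0 reads in both libraries; the same limit holds for the Mir124a and Mir9 genes.

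All 6 members were present in the myotubes, at levels spread over 213-fold. Together they took 0.314% of reads assigned to miRNA genes in replicate 1 (95% exact Clopper-Pearson interval 0.3099% to 0.3178%). In replicate 2 the share was 0.378% (0.3746% to 0.3823%), and the mean was 0.346% ± 0.0457 (SD, n = 2). Each reached 2 CPM in both libraries, a level that 12.4% of all annotated miRNA genes reached. Mir181c and Mir181d stood highest, Mir181a-1 and Mir181b-2 were intermediate, and Mir181a-2 and Mir181b-1 were low. The family was a small part of the reads assigned to genes. The mean of Mir206, the gene at the highest level, was 109-fold that of the 6 genes summed. Reads that mapped to several places are left out of both, so the family's share of the whole miRNA pool was not tested.

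The members of the chromosome 8 cluster, whose 5p arms are unique among annotated hairpins, carried most of the assigned reads. Mir181c had 9039 reads in replicate 1 and 16871 in replicate 2, or 1192 and 1710 CPM, with a mean of 1451 ± 366 CPM (SD, n = 2). Mir181d had 8211 and 12203 reads, or 1083 and 1237 CPM, with a mean of 1160 ± 109 CPM (SD, n = 2). The higher Mir181d value lay above the lower Mir181c value, so the ranges of the partners overlapped. Within each library Mir181c was nonetheless ahead, with 52.4% of the cluster's reads in replicate 1 (95% exact Clopper-Pearson interval 51.65% to 53.15%) and 58.0% in replicate 2 (57.46% to 58.60%). The log2 ratio of Mir181c to Mir181d was 0.14 and 0.47 in replicates 1 and 2. An exact paired permutation test (two-sided) of 2 libraries has a smallest p of 0.5, and the ratios are given without a test.

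The cluster on chromosome 1 was dominated by Mir181a-1. Mir181a-1 had 4267 and 3757 reads, or 563 and 381 CPM, with a mean of 472 ± 129 CPM (SD, n = 2). Its partner Mir181b-1 had 44 and 77 reads, or 5.80 and 7.81 CPM, and was the lowest member at 6.80 ± 1.42 CPM (SD, n = 2). Mir181a-1 thus held 99.0% of the cluster's assigned reads in replicate 1 and 98.0% in replicate 2, a log2 ratio of 6.58 and 5.60. The lower Mir181a-1 value was far above the higher Mir181b-1 value, so the libraries did not overlap.

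On chromosome 2 the order of the partners in assigned reads was the other way round, with the b gene ahead. Reads that fit both copies of a 5p arm are left out here too. Mir181a-2 had 297 and 176 reads, or 39.2 and 17.8 CPM, with a mean of 28.5 ± 15.1 CPM (SD, n = 2). Mir181b-2 had 1934 and 4248 reads, or 255 and 431 CPM, with a mean of 343 ± 124 CPM (SD, n = 2). The values of the partners did not overlap, and Mir181b-2 held 86.7% of the cluster's reads in replicate 1 and 96.0% in replicate 2. The log2 ratio of Mir181a-2 to Mir181b-2 was -2.70 and -4.59.

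Copies with the same 5p arm were thus far apart in assigned reads. Mir181a-1 exceeded Mir181a-2 by 3.84 and 4.41 on the log2 scale in replicates 1 and 2, and Mir181b-2 exceeded Mir181b-1 by 5.44 and 5.78. Since reads that fit both copies are left out, these ratios compare only reads that could be placed, which need not come from the 5p arm, and are no measure of which locus makes mature miR-181a or miR-181b. The tables give reads per gene and not per arm, so which arm the assigned reads came from was not tested.

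**Figure D2:**
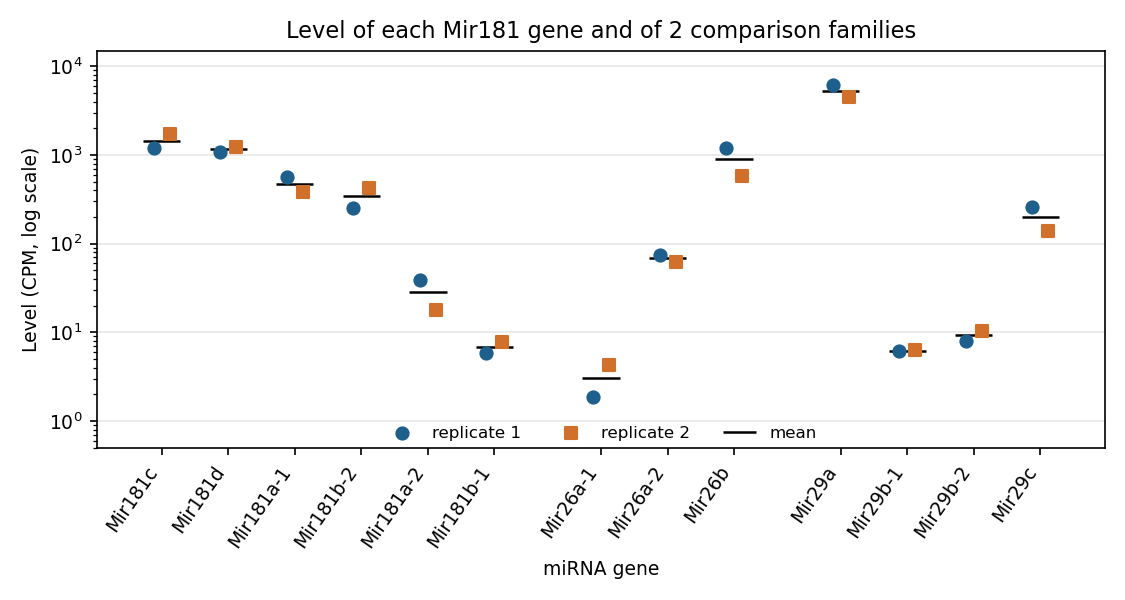
Level of each gene in CPM on a log scale, with circles for replicate 1, squares for replicate 2 and bars for the mean of both. Mir181c and Mir181d lie between 1083 and 1710 CPM, Mir181b-1 lies at 5.80 and 7.81 CPM, and the Mir26 and Mir29 families, which also pair genes that share a mature arm with genes that do not, are shown beside them.

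Ordered by mean, the members ran Mir181c, Mir181d, Mir181a-1, Mir181b-2, Mir181a-2 and Mir181b-1, at places 49, 62, 85, 97, 174 and 233 among all 2202 genes. Of the 5 neighbouring pairs in this order, 3 were separated by more than the spread of the libraries: Mir181d from Mir181a-1, Mir181b-2 from Mir181a-2, and Mir181a-2 from Mir181b-1. Mir181a-1 and Mir181b-2 changed places between the libraries, with Mir181a-1 ahead in replicate 1 and Mir181b-2 ahead in replicate 2.

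Reads that mapped to several places are left out, so the cluster shares and ratios below describe assigned reads only. How far the reads left out would change them was not tested. Summed by cluster, Mir181c and Mir181d made up 72.5% of the family's assigned reads in replicate 1 (95% exact Clopper-Pearson interval 71.93% to 73.07%). In replicate 2 they made up 77.9% (77.46% to 78.30%). Mir181a-1 and Mir181b-1 made up 18.1% and 10.3%, and Mir181a-2 and Mir181b-2 made up 9.38% and 11.9%. The log2 ratio of the Mir181c cluster to the Mir181a-1 cluster was 2.00 and 2.92. Between the remaining clusters the order was not resolved, since the Mir181a-1 cluster was 1.93-fold higher than the Mir181a-2 cluster in replicate 1 and 1.15-fold lower in replicate 2.

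**Figure D3:**
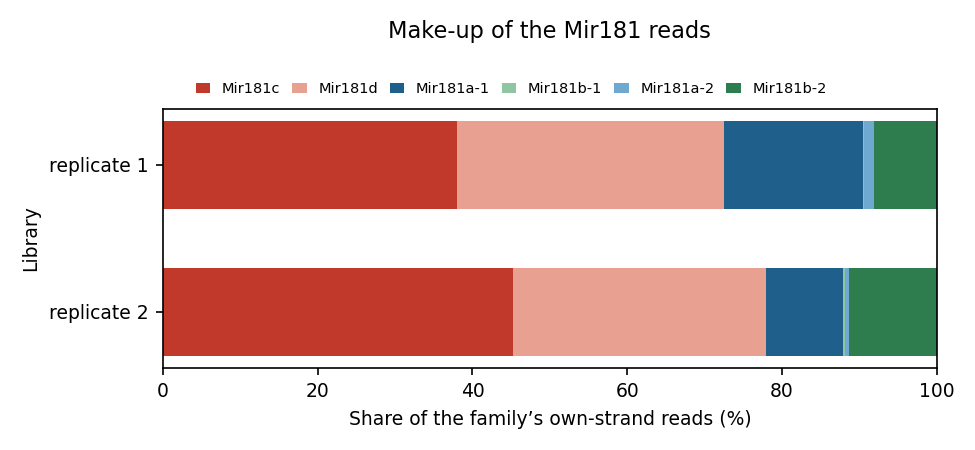
Share of the family's assigned own-strand reads taken by each gene in percent, with 1 bar per library. Reads that mapped to several places are left out. Mir181c and Mir181d fill 72.5% of the bar in replicate 1 and 77.9% in replicate 2, while the share of Mir181a-1 is 17.9% and 10.1%.

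The Mir26 and Mir29 families were set beside it as families that also mix genes with identical mature arms and genes without. In the Mir26 family, the single-copy Mir26b had 1198 and 584 CPM, against 73.9 and 62.8 CPM for Mir26a-2 and 1.85 and 4.26 CPM for Mir26a-1, which share miR-26a-5p. In the Mir29 family, Mir29a had 6134 and 4489 CPM and Mir29c had 258 and 140.2 CPM, against 6.20 and 6.28 CPM for Mir29b-1 and 8.05 and 10.4 CPM for Mir29b-2, which share miR-29b-3p. In all 3 families the highest gene was one whose mature arms had no exact copy in another hairpin. Reads that fit several copies are left out of the counts, which can lower the genes with a copied arm. The families were also chosen for mixing both kinds of gene. This order is therefore no test of copy number, and its cause was not tested. Mir181a-1 and Mir181b-2, at 472 and 343 CPM, had higher means than any of these Mir26a or Mir29b genes. No test was made of this difference.

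Between the libraries, the a genes were higher in replicate 1 and the b, c and d genes were higher in replicate 2. Mir181a-1 was 1.45-fold and Mir181a-2 2.15-fold higher in replicate 1. Mir181b-2 was 1.72-fold, Mir181c 1.46-fold and Mir181d 1.17-fold higher in replicate 2 (all relative to TMM effective library sizes). These 5 differed by more than counting error in an exact two-sided binomial test with Benjamini-Hochberg adjustment over the 415 genes tested, with adjusted p from 6.33e-194 for Mir181c to 7.57e-16 for Mir181a-2. Mir181b-1 was 1.37-fold higher in replicate 2 and did not pass (exact binomial test, adjusted p = 0.158); its counts were the lowest of the family.

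Of all genes tested, 55.7% differed in either direction, with 30.4% higher in replicate 1 and 25.3% in replicate 2. The share was larger at higher counts: among genes with 100 or more reads in total, as all 6 members had, 85.4% differed, and 5 of 6 members is near that share. Of the members, 2 were higher in replicate 1 and 3 higher in replicate 2, and the median of their log2 differences (replicate 1 minus replicate 2) was -0.34, against 0.02 over all genes tested. In size, 2 of the 6 members, Mir181a-2 and Mir181b-2, exceeded the median absolute log2 difference over all genes tested, 0.61. Over the tested genes with 100 or more reads in total, the median was 0.12 and the median absolute log2 difference 0.57. The test compares these libraries and not conditions.

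Seen as spread, Mir181d was the most even member, with a coefficient of variation of 9.38% between the libraries, and Mir181a-2 the least even, with 52.9%. For the 274 genes at 2 CPM or more in both libraries, edgeR put the common biological coefficient of variation at 0.435, as a fraction. It leaves out counting error, which the percentages of the members include, so the measures are not alike. Partners of a cluster moved in opposite directions on chromosomes 1 and 2, although Mir181b-1 did not pass the test, and in the same direction on chromosome 8. The 5 blood cell markers did not move together: Mir142 had 89.0 CPM in replicate 1 and 178 CPM in replicate 2 and Mir150 had 0.132 and 1.32 CPM. Mir451a had 11.9 and 3.65 CPM, Mir144 had 3.43 and 0.710 CPM, and Mir223 had 0.264 and 0.101 CPM, below the limit that a count of 0 allows. Their summed level was higher in replicate 2, like Mir181b-2, Mir181c and Mir181d, and the endothelial Mir126a was higher in replicate 1, like the a genes. The part of these markers in the differences was not tested.

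**Figure D4:**
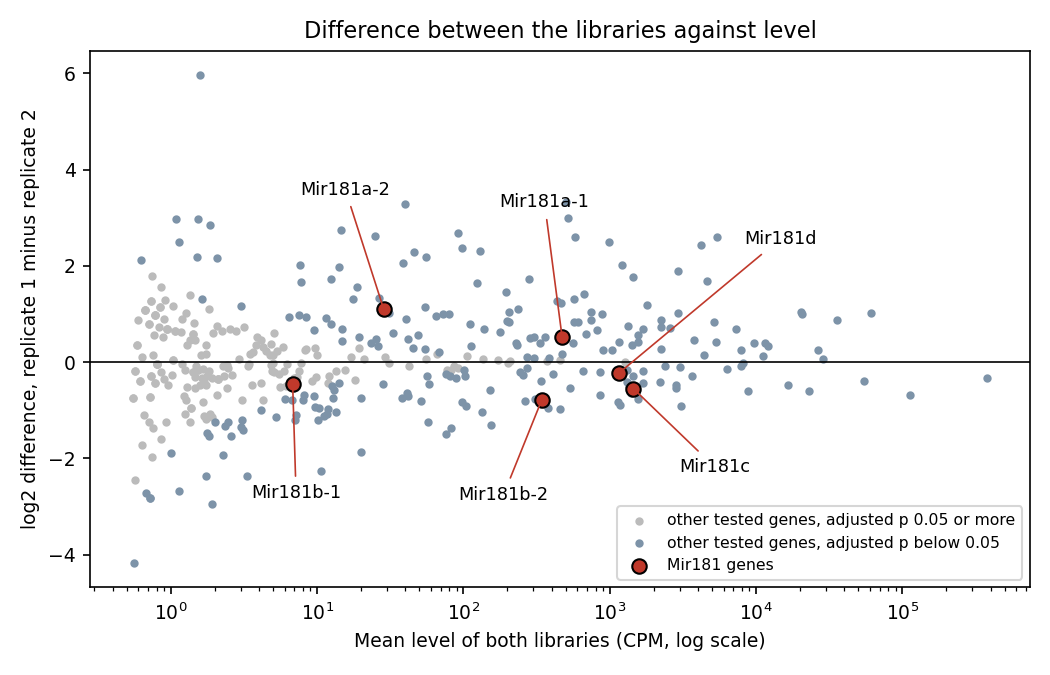
Difference between the libraries (log2, replicate 1 minus replicate 2) against mean level in CPM on a log scale for the genes tested, with the Mir181 genes in red. The members lie within the cloud of the other genes, Mir181a-1 and Mir181a-2 above 0 and the other 4 below it.

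Genes with the most similar levels over the 2 libraries were found by Euclidean distance of log2(CPM + 1). For Mir181a-1 this was Mir499, a muscle miRNA gene in an intron of the myosin gene Myh7b, at 564 and 378 CPM (distance 0.0094). Mir208b, in an intron of the myosin gene Myh7, was nearest to Mir181b-2, at 260.4 and 495 CPM (distance 0.20). Mir744 was nearest to Mir181c, at 1105 and 1678 CPM, and Mir501 to Mir181d, at 1110.1 and 1252 CPM. The low members Mir181a-2 and Mir181b-1 lay nearest to Mir138-1, at 41.7 and 20.1 CPM, and Mir3075, at 6.20 and 7.60 CPM. Over only 2 libraries these distances describe level and little else.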

How the data were processed

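For each library the authors deposited a table of raw counts by miRNA gene, based on mm10 and annotation M21, per the description file deposited beside it. Aligner, counter and read filters were not given in the sources used here. Counts on the gene's own strand were used; the files have no header, and this column was recognised from its values, since its no-feature line was small and that of the opposite strand large. Unmapped (22.7% and 23.1% of reads in replicates 1 and 2), multimapping (22.0% and 17.9%) and no-feature reads (5.88% and 5.57%) name no gene and stayed out of totals and tests. Nothing in the labels says how far the replicates were handled apart. The p-values measure only whether these libraries differ by more than counting error, and not the spread between biological replicates.

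Levels are CPM over own-strand gene reads. Libraries were compared with an exact binomial test per gene (TMM from edgeR 4.0.16, R 4.3.3; genes with 10 or more reads; threshold 0.05), since edgeR's quasi-likelihood test has no condition to test in 1 group. Log2 ratios used a pseudocount of 0.5 reads. Data simulated for this comparison, with 419 genes tested, held counting error and no further spread between libraries. There, 51.1% of genes changed 1.5-fold, 70.4% changed 2-fold and 1.32% of unchanged genes passed. These rates therefore do not give the rate of calls between real replicates. Alternatives were the count ignoring strand, other denominators, DESeq2 1.42.0 size factors or library totals, other read minimums, pseudocounts and window lengths, and each library alone. Hairpins came from the GENCODE M21 transcripts and mature sequences from RefSeq, in which all 6 members matched; copies were searched among annotated hairpins, not the genome. Python 3.11.15 with scipy 1.17.1 was used.

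The members, the comparison families, the markers and the rule for named genes (all members, the nearest gene to each, the Mir26 and Mir29 families, Mir206 and Mir133b) were chosen with earlier results of these data known; Mir133b had 13610 and 10568 CPM.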

Additional observations from a re-analysis of the deposited data

Results flagged for a closer look

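Some reads lay outside the gene counts, in numbers over the 3 that a count of 0 allows for. The line for reads with several mapping places held 3378438 in replicate 1 and 3295854 in replicate 2, and the line for reads that mapped outside miRNA genes held 903243 and 1027420. Neither line is divided by sequence, so the part of the Mir181 family in them was not tested. A single group of 2 libraries allowed no search for an outlying sample or for a contrast between groups.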

How the results depend on the processing

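The family's mean share of 0.346% became 0.179% with all reads as the denominator, 0.562% without Mir206 in the denominator and 0.397% with the count that ignores strand. The log2 ratio of the Mir181a-1 cluster to the Mir181a-2 cluster, 0.37 as a mean, ran from -0.21 without replicate 1 to 0.95 without replicate 2. With windows of 16 bases, 1 member in place of 2 had no window shared with another hairpin. Of 30 single-member levels under alternatives, 12 moved by more than the SD. The levels from each library alone could not, since either of 2 values always lies within the SD of their mean. Of the 12 that moved, 5 fell with all reads as the denominator, 6 rose without Mir206, and Mir181d rose with strand ignored. With strand ignored the counts of Mir181d were unchanged, at 8211 and 12203 reads. The library totals used as the denominator were smaller there, at 6839587 and 8380107 reads. All 30 member differences between the libraries kept their direction and side of the threshold under the other size factors, read minimums and strand setting. Read minimums do not enter the log2 differences, so direction could not turn there and only the adjusted p could change. With strand ignored, the counts of the members changed by 1 read, so direction could turn only through the library sizes. The adjusted p of Mir181b-1 ran from 0.114 to 0.239 (exact binomial test). At 10 CPM 5 members and at 100 CPM 4 members counted as detected. Pseudocounts of 0.1 and 5 reads could turn no ratio within a library, since the same number is added to both counts. The mean log2 ratio of Mir181a-1 to Mir181b-1, 6.09 as reported, became 6.10 and 5.98. That of the Mir181a-1 cluster to the Mir181a-2 cluster stayed at 0.37 with both. The counts of Mir181b-1, 44 and 77 reads, limit what could be seen of that gene.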
